A study of Mus musculus with 9 samples.

Results

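The control tumours were the 5 primary tumours that the authors' sample sheet marks as CTRL in all of their libraries, and they were set beside the 47 primary tumours marked TAM-, the Lazy Piggy tumours of mice that received no tamoxifen. They were chosen by these marks alone, out of 141 animals and control DNAs in 9 sequencing lanes, with the animal as the replicate. All lanes are labelled as mouse Sonic hedgehog (SHH) medulloblastoma of the genotype lazy_piggy, and the sources used here do not state what sets the CTRL tumours apart in genotype, allele or agent, nor their ages and times. Controls 1 and 2 were sequenced in lane 3 and have no donor chromosome in the sheet, and controls 3, 4 and 5 were sequenced in lane 8 with donor chromosome 7 and share the first part of their animal ID. The donor chromosome is the one on which the transposon array starts. Of the untreated tumours, 37 had donor chromosome 10 and 10 had donor chromosome 7. A further animal of lane 3, with 5 libraries marked CTRL and 1 marked TAM+, was left out of the comparison.

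SHH medulloblastoma arises from granule neuron progenitors of the cerebellum, in which loss of the receptor Ptch1 leaves the signal transducer Smo active. Lazy Piggy is a hybrid of the transposons Sleeping Beauty (SB) and piggyBac (PB). SB transposase moves the whole element and tags the genes that it lands in or near, and PB transposase can later move the inner PB part out again. Each tumour was read with IR libraries, amplified from the SB ends, with PB libraries, amplified from the PB ends, and with JX libraries, amplified across the boundary of SB and PB. An SB element that still holds its PB part can give counts in all 3 kinds at the same place. A tumour grown from few cells shows few sites with large shares of the counts, and SB jumps often land on the chromosome they start from.

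The IR libraries of controls 1, 2, 3 and 5 were as deep as those of the untreated tumours. They had 4102222, 4098932, 3562748 and 3286757 counts, against 1236372 to 5553180 in the untreated tumours. Control 4 stood apart with 253248 IR counts, below every untreated tumour, and with only 115 PB counts against 6650 to 2853048. Its 219915 JX counts lay within the untreated range of 154247 to 1559890. Control 5 stood apart in another way. It listed 478783 IR positions, which is 20.8% of the IR positions summed over all 141 animals and control DNAs, whereas untreated tumours listed 4200 to 35323. Control 2 also listed more IR positions than any untreated tumour, with 36443. The 95% Wilson interval of the share held by any of the 15 highest sites of a control tumour was at most 0.178 percentage points wide, apart from the PB libraries of control 4. These intervals cover counting error only, because the reads were amplified and carry no molecular identifiers. A share of counts is a share of amplified fragments, so a larger clone and better amplification of a site cannot be told apart.

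**Figure D1:**
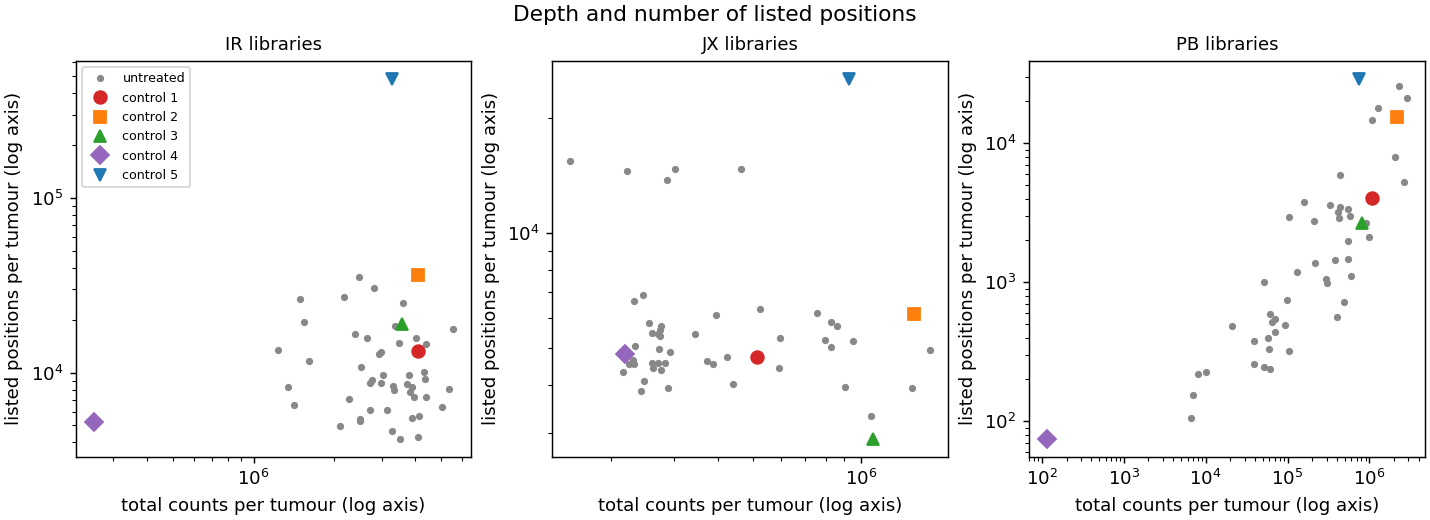
Listed positions (vertical log axis) against total counts (horizontal log axis) for each tumour in IR, JX and PB libraries, with untreated tumours as grey points and the 5 control tumours as coloured symbols. Control 4 lies at the far left in IR and PB with 253248 and 115 counts, and control 5 lies at the top in IR with 478783 positions.

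The control tumours did not form a uniform group. Controls 1 and 2 carried clonal SB sites of the kind seen in untreated tumours, controls 3 and 5 had no credited IR site, and most called IR sites of control 4 lay at positions spread over animals, meaning that at least 3 animals listed the site and none held over 50% of its counts. A site was a run of positions at most 10 bp apart, called in a tumour that had 10 or more counts there, provided that these came to 1% or more of the count at its top site. Each site was credited to 1 animal only, the animal whose share there was the largest. In IR libraries controls 1 to 5 had 17, 31, 0, 527 and 0 credited sites. Untreated tumours had 2 to 70, with a median of 12. Of the 527 in control 4, 18 were not spread. The controls therefore lay on both sides of the untreated range, with 1 above it and 2 below it. Their mean of 115 ± 231 (SD, n = 5) against 15.7 ± 12.9 (SD, n = 47) gave p = 0.0662 in a two-sided exact permutation test over all 2598960 splits, and an adjusted p of 0.225 over the 17 measures tested by the Benjamini-Hochberg method. Without control 4 the control mean was 12, below the untreated mean.

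JX and PB libraries gave the controls site numbers within or just below the untreated range. In JX libraries controls 1 to 5 had 64, 24, 71, 176 and 18 credited sites against 2 to 313 in untreated tumours. The JX means were 70.6 ± 63.4 (SD, n = 5) and 44.6 ± 58.5 (SD, n = 47), with p = 0.340 in the exact permutation test and an adjusted p of 0.578. In PB libraries the controls had 23, 25, 26, 1 and 9 credited sites against 3 to 70. The single PB site of control 4 came from a library with 115 counts, where a count of 0 allows a share of up to 2.61%. The PB means were 16.8 ± 11.2 (SD, n = 5) and 19.2 ± 14.9 (SD, n = 47), with p = 0.751 in the exact permutation test and an adjusted p of 0.912.

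Clonality was read from the share of counts at the highest site and from the effective number of sites, which is 1 divided by the sum of the squared shares and is low when few sites hold most counts. Both were taken over all sites of a tumour, also those that were not called, not credited or spread over animals. In controls 3 and 5, which had no credited IR site, the IR values rest wholly on such sites. The highest IR site held 34.7%, 9.50%, 14.4%, 3.30% and 13.4% of the counts in controls 1 to 5. Untreated tumours ranged from 8.93% to 69.2%, with a median of 22.5%, so control 1 lay above the untreated median and control 4 below the whole range. In controls 3 and 5 this site lay in the homeobox gene En2 at positions spread over animals, and their highest site that was not spread held 0.229% and 0.215%, against 4.65% to 69.2% in untreated tumours. The mean was 15.1% ± 11.8 (SD, n = 5) against 27.8% ± 14.7 (SD, n = 47), with p = 0.0605 in the exact permutation test and an adjusted p of 0.225. The effective number of IR sites was 6.34, 21.4, 39.6, 200 and 49.8 in controls 1 to 5. It was 2.02 to 46.0 in untreated tumours, with a median of 7.62, so that 4 of 5 controls lay above the untreated median and 2 above the whole range. This was the only 1 of the 17 measures that passed the test, with means of 63.5 ± 78.3 (SD, n = 5) and 9.90 ± 7.78 (SD, n = 47), p = 0.000266 in the exact permutation test and an adjusted p of 0.00452.

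Control 4 moved the size of this difference by more than 1.5 times. Without it the means were 29.3 and 9.90, with p = 0.00277 in the exact permutation test and an adjusted p of 0.0442. The adjusted p was 0.351 against the 10 untreated tumours with donor chromosome 7 and 0.694 against the 5 untreated tumours of lanes 3 and 8, and its range over all alternatives was 0.000512 to 0.694. Within lane 8 the 3 controls had a mean effective number of 96.6 and the 3 untreated tumours 14.0, with all controls above all untreated tumours and p = 0.1 in the exact permutation test, the smallest that 3 against 3 allow. Within lane 3 the 2 controls had a mean of 13.9 and the 2 untreated tumours 9.24, in a design whose exact p cannot go below 0.333. With lane as a block over both lanes, an alternative chosen after seeing the data, the difference was 51.4, with p = 0.05 in the exact permutation test over 120 splits within lanes, whose smallest p is 0.0167, and an adjusted p of 0.688.

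In JX and PB libraries the clonality measures did not pass the test. The highest JX site held 12.0%, 24.8%, 13.3%, 2.09% and 10.2% of counts in controls 1 to 5, against 1.33% to 62.5% in untreated tumours, with an adjusted p of 0.652 in the exact permutation test. In controls 4 and 5 this site was spread over animals. Their highest JX site that was not spread held 0.109% and 6.35%, against 0.685% to 62.5% in untreated tumours. The effective number of JX sites was 34.3, 9.84, 23.6, 387 and 57.8 against 2.49 to 383, so control 4 was just above the untreated range. Means were 102 ± 160 (SD, n = 5) and 102 ± 112 (SD, n = 47), with p = 0.999 in the exact permutation test. Controls 1, 2, 3 and 5 had 513598, 1407276, 1082516 and 924199 JX counts, above the untreated median of 287429. The part of depth in the JX effective number was not tested. The highest PB site held 31.6%, 19.1%, 20.9%, 20.9% and 15.9% of counts, against 10.9% to 77.1%, with an adjusted p of 0.277 in the exact permutation test. In controls 3 and 5 this PB site lay in En2 at positions spread over animals. Their highest PB site that was not spread held 3.81% and 1.64%, against 10.9% to 77.1% in untreated tumours. The value of control 4 rests on 24 of 115 counts. The effective number of PB sites was 8.70, 14.2, 16.3, 17.02 and 31.9, all above the untreated median of 7.24. Its means of 17.6 ± 8.64 (SD, n = 5) and 8.95 ± 8.31 (SD, n = 47) gave p = 0.0338 in the exact permutation test and an adjusted p of 0.225, so this measure failed the correction.

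**Figure D2:**
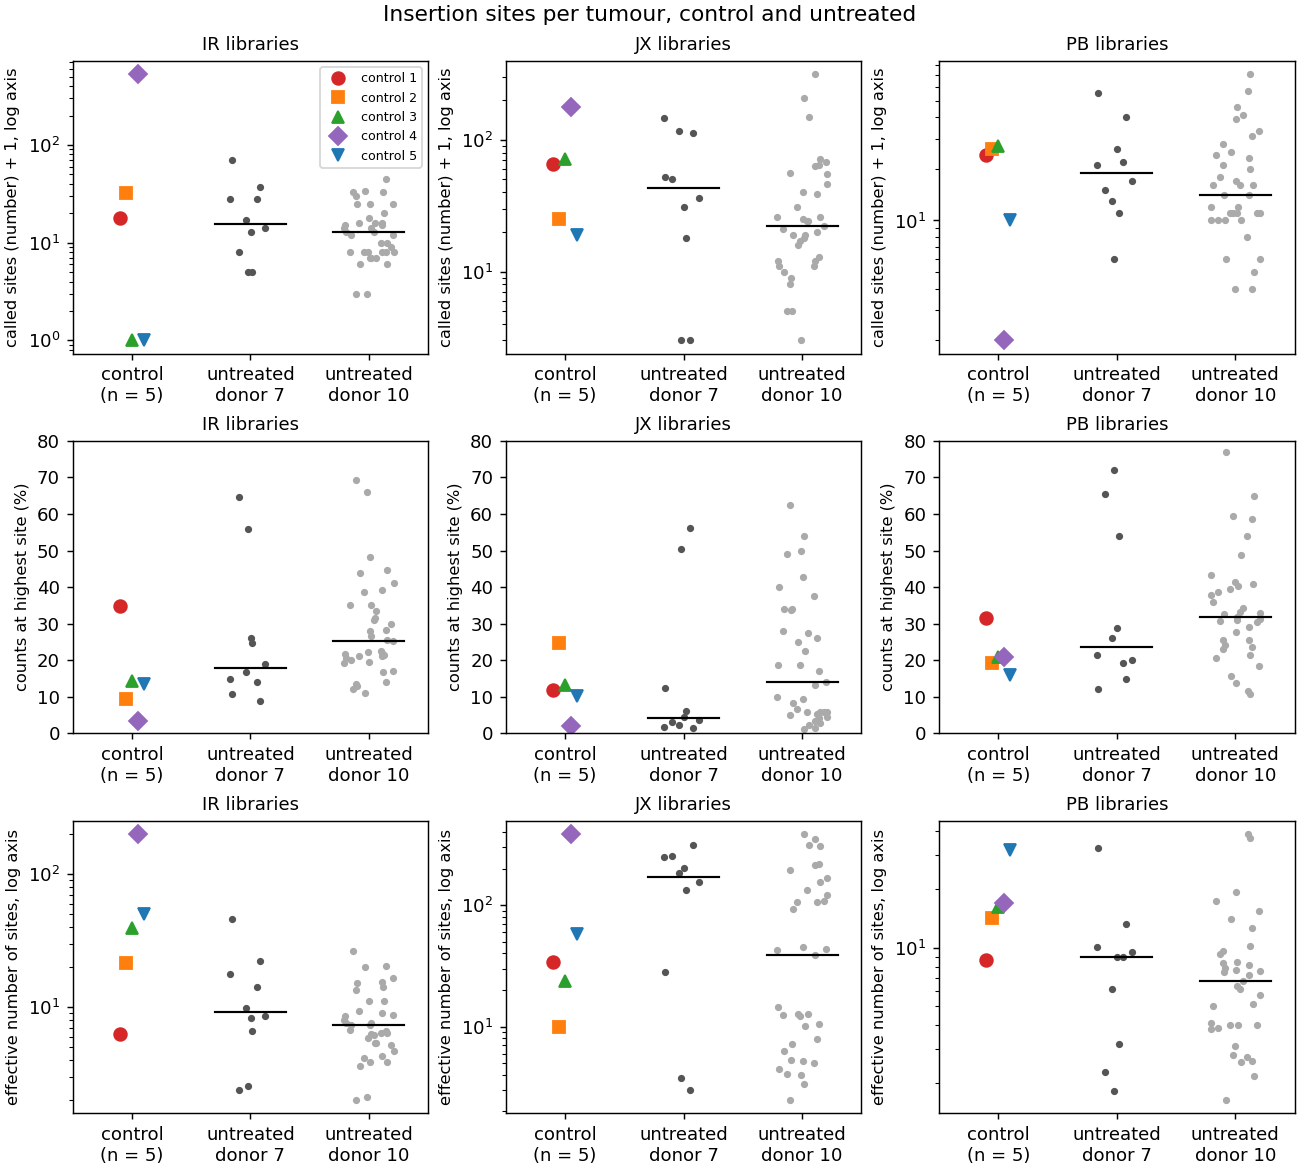
Called and credited sites plus 1 (top, log axis), percent of counts at the highest site (middle, linear axis) and effective number of sites (bottom, log axis) for each tumour in IR, JX and PB libraries. Coloured symbols are controls 1 to 5, grey points are untreated tumours by donor chromosome, and horizontal lines are their medians. In IR libraries control 4 lies at 527 sites, controls 3 and 5 at 0, and controls 1 and 2 among the untreated tumours.

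The highest sites show what lay behind these numbers, and they are given per locus, joining called sites of any kind at most 500 bp apart. In control 1 the leading locus was in intron 3 of Syt9, which encodes a synaptotagmin of the vesicle release machinery, at chromosome 7, positions 114613778 to 114613810 of mm9. It held 34.7% of the IR counts, 1.64% of the JX counts and 31.6% of the PB counts. The share at this place was thus large in IR and PB libraries and small in JX libraries. The next locus lay in intron 4 of Lmo7, a LIM domain protein of cell junctions, at chromosome 14, positions 102271386 to 102271780. It held 18.1% of IR, 12.0% of JX and 11.8% of PB counts. Intron 1 of Esrrg, an orphan nuclear receptor, at chromosome 1 position 189840035, held 3.44%, 8.39% and 7.77% of IR, JX and PB counts in the same tumour. A locus 306.285 kb downstream of Tox, an HMG box factor, held 1.54%, 6.83% and 4.24%. Intron 3 of Gabrg3, a GABA receptor subunit, held 4.49%, 0.951% and 0.633%.

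Control 2 had a flatter set of leading loci. A locus 1.225 kb upstream of Cox6a2, a subunit of cytochrome c oxidase, at chromosome 7, positions 135351068 to 135351105, held 7.34% of IR, 24.8% of JX and 19.1% of PB counts. Intron 1 of Eefsec, the elongation factor for selenocysteine, at chromosome 6 position 88333311, held 8.04%, 11.7% and 7.87%. A locus 53.100 kb upstream of Reln, which encodes the secreted guidance protein reelin, held 9.50%, 1.74% and 11.5%. These 3 loci had counts in every kind of library, but their order differed between the kinds. A locus downstream of 5730577I03Rik held 7.27%, 2.20% and 7.48%. Loci in intron 4 of Zfp667, a zinc finger gene, and downstream of Plekhb2 held 6.76% and 6.74% of IR counts. Intron 32 of Plcb1, a phospholipase C, held 4.52%, 6.71% and 5.01% of IR, JX and PB counts.

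Apart from loci spread over animals, no locus of controls 3 and 5 was called in all 3 kinds. Their highest IR sites lay in En2, which acts in the mid-hindbrain, and in Foxf2, at positions listed in 119 to 138 other animals or control DNAs. Positions in En2 held 1.86%, 5.87%, 23.2%, 0.143% and 19.8% of IR counts in controls 1 to 5, and 0.0933% to 31.1% in untreated tumours. En2, Foxf2 and Sfi1 form the list of loci open to wrong mapping, and whether these reads are wrongly mapped was not tested. Values with these loci left out are given in the last section. Apart from En2 and Foxf2, control 3 had 1 called IR site, in intron 29 of Vps13b with 0.151% of counts, which was credited to an untreated tumour of the same lane that held 25.6% there. Control 5 had no other called IR site.

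JX libraries of controls 3 and 5 did hold large sites. In control 3 a site in intron 4 of Sv2c, a synaptic vesicle glycoprotein, held 13.3% of JX counts, but 94 other animals listed the same site and up to 37.6% of an animal's JX counts lay there. Sites credited to control 3 included chromosome 15 position 29029200, with no listed gene and 6.54% of JX counts, and chromosome 6 position 51139548, 80.361 kb downstream of Mir148a, with 5.29%. Exon 4 of Tppp, a tubulin polymerisation factor, exon 3 of Stk35, a kinase, intron 7 of Fhit, a fragile site gene, and intron 2 of Fat3, a protocadherin, held 2.88%, 2.68%, 2.27% and 2.11% of its JX counts. Each of these 6 credited sites had at most 0.00188% of the IR counts and none of the PB counts. In control 5 a site 0.266 kb upstream of the olfactory receptor gene Olfr470, on chromosome 7, held 6.35% of JX counts. Intron 5 of Frmpd4, a postsynaptic scaffold gene on chromosome X, held 2.37%. Neither had any IR or PB counts within 100 bp.

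The PB sites of controls 3 and 5 were separate again. In control 3 the leading credited PB sites were in intron 1 of BC024582 with 3.81% of PB counts and in intron 7 of Ift88, a gene of ciliary transport, with 2.80%. Neither had IR or JX counts. All 26 credited PB sites of control 3 lay away from its IR and JX counts, as did the single PB site of control 4. For controls 1, 2 and 5 this share was 8.70%, 20% and 33.3%, and in untreated tumours it ran from 0% to 77.8% with a median of 31.3%. The means of 52.4% ± 44.3 (SD, n = 5) and 31.2% ± 21.5 (SD, n = 47) gave p = 0.0644 in the exact permutation test and an adjusted p of 0.225. Of credited IR sites, 100%, 100% and 94.3% had JX counts within 100 bp in controls 1, 2 and 4, against a mean of 97.4% ± 6.98 (SD, n = 47).

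**Figure D3:**
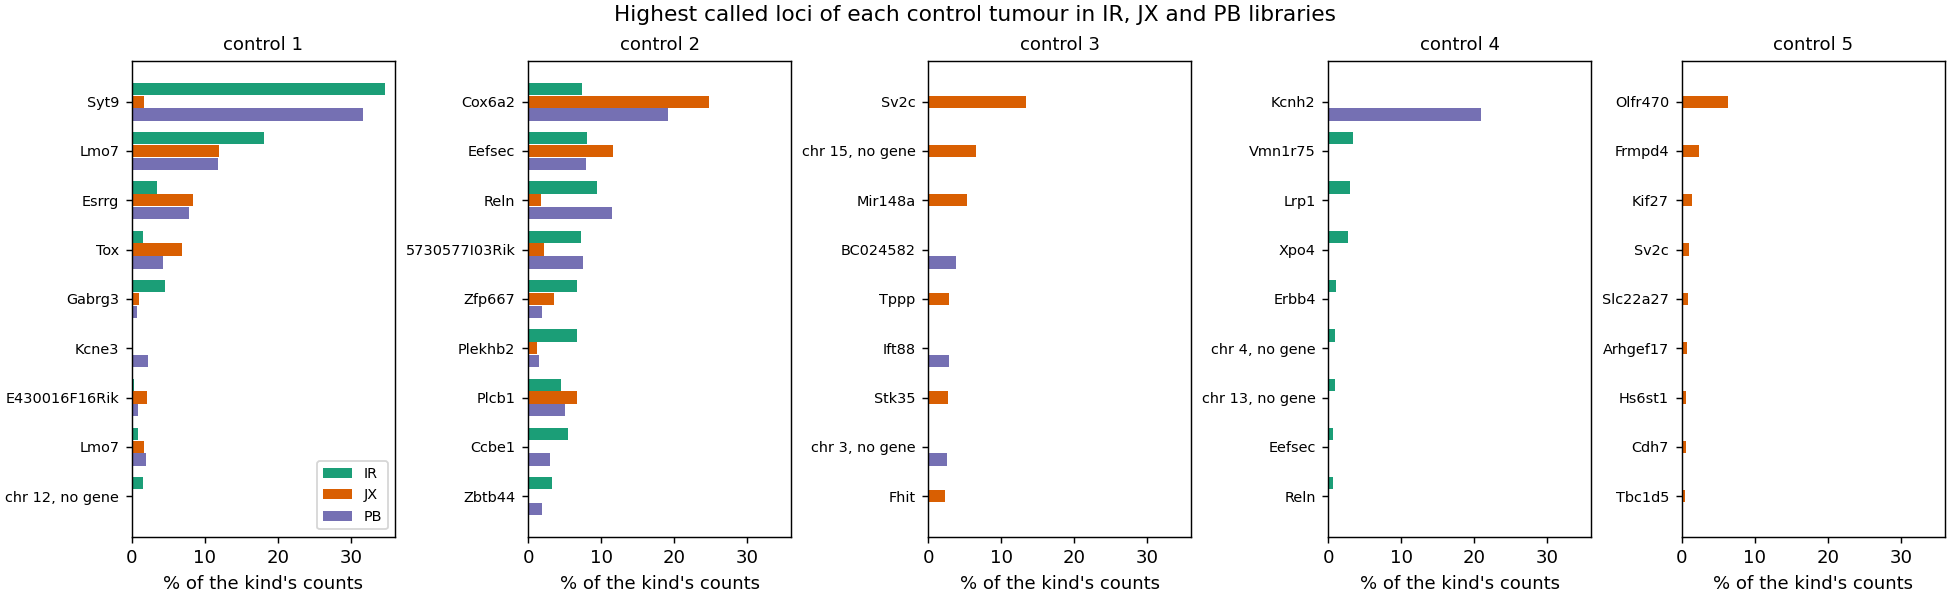
Percent of the counts of each kind (horizontal axis) at the 9 highest loci of each control tumour, with IR in green, JX in orange and PB in purple, leaving out loci spread over many animals and naming each by its listed gene. Controls 1 and 2 have loci with bars in all 3 kinds, such as Lmo7 with 18.1%, 12.0% and 11.8%, whereas the loci of controls 3 and 5 have a bar in 1 kind.

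Counted over the whole tumour, control 1 had 9 loci and control 2 had 13 loci called in all 3 kinds, and controls 3, 4 and 5 had 0. Loci spread over animals were left out of this count. Untreated tumours had 0 to 31 such loci, with a median of 6, and 3 of the 47 had none. Controls 1 and 2 thus lay above the untreated median, and controls 3, 4 and 5 lay at its lower end.

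**Figure D4:**
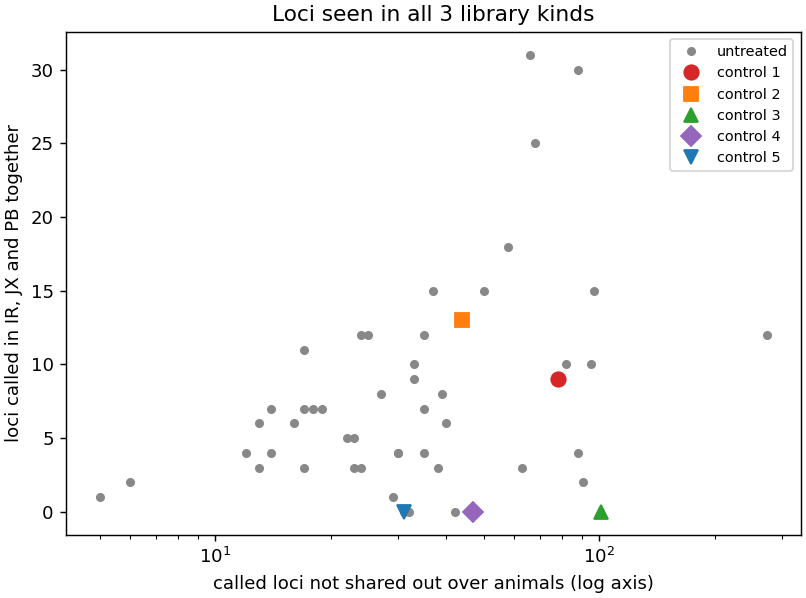
Number of loci called in IR, JX and PB libraries together (vertical axis) against the number of called loci not spread over animals (horizontal log axis), with untreated tumours as grey points and controls as coloured symbols. Controls 1 and 2 lie at 9 and 13, and controls 3, 4 and 5 at 0.

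Control 4 listed what other animals listed. Of its 556 called IR sites 524 were spread over animals, against 0 to 4 in untreated tumours. Of its 930 called JX sites 913 were, within the range of untreated tumours, which had 0 to 1160 such JX sites with a median of 90. The highest of the spread sites lay 26.519 kb upstream of Gfra1, a receptor for glial neurotrophic factors, with 1.70% of IR and 2.09% of JX counts. Other spread sites of this tumour lay downstream of Gm12159 with 1.14% of IR and 1.28% of JX counts, downstream of Cxcr4, a chemokine receptor, with 0.811% of IR counts, and upstream of the transcription factor gene Klf4 with 0.792%. Among sites that were not spread, a site 11.892 kb downstream of the vomeronasal receptor gene Vmn1r75 held 3.30% of IR counts (95% Wilson interval 3.23% to 3.37%) and none of the JX counts. Sites in intron 10 of Lrp1, an endocytic receptor, and upstream of Xpo4, a nuclear export receptor, held 2.89% and 2.64% but were credited to other animals. Control 4 also had called IR counts at 6 of the 31 sites credited to control 2, Eefsec and Reln among them, with 6671 counts or 2.63% of its total, although the tumours were sequenced in different lanes. No other pair of controls shared a called site that was credited to either and not spread. The single PB site of control 4, in intron 9 of the potassium channel gene Kcnh2, had 24 of 115 counts (20.9%, 95% Wilson interval 14.4% to 29.2%). An animal of the tamoxifen arm in another lane also had this site called, with 3947 counts or 3.04%, so that the site was credited to control 4 by a share of 115 counts.

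Low counts at a tumour's sites also appeared in other animals, in several of the libraries mostly in 1 animal of the same lane. All 17 IR sites of control 1 had their next highest share in the same animal of lane 3, of the tamoxifen arm, with at most 0.384% of that animal's counts. Of the 31 IR sites of control 2, 23 had their next highest share in 1 animal of lane 3. For control 3, 70 of 71 JX sites that were not spread had it in 1 untreated animal of lane 8, with at most 0.210%. In other libraries this was less marked, with 3 of 23 PB sites of control 1 and 6 of 26 of control 3 in 1 animal of the lane. For control 4 the animal that held it most often was of another lane, for 10 of 18 IR sites and 2 of 10 JX sites.

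The chromosome spread of the credited sites did not pass the test in any kind of library, with adjusted p from 0.338 to 0.929 in the exact permutation tests. Credited IR sites lay on 8, 13, 0, 20 and 0 chromosomes in controls 1 to 5 and on 2 to 16 in untreated tumours, with means of 8.2 ± 8.61 (SD, n = 5) and 7.77 ± 3.83 (SD, n = 47) and p = 0.875 in the exact permutation test. In JX libraries the controls' sites lay on 15, 11, 20, 20 and 13 chromosomes, a mean of 15.8 ± 4.09 (SD, n = 5) against 11.8 ± 5.72 (SD, n = 47), with p = 0.139 in the exact permutation test. In PB libraries they lay on 10, 10, 10, 1 and 4, a mean of 7 ± 4.24 (SD, n = 5) against 8.51 ± 3.93 (SD, n = 47), with p = 0.449 in the exact permutation test.

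Chromosome 7 was the leading chromosome of control 1. It held 8 of 17 IR sites (47.1%), 23 of 64 JX sites (35.9%) and 10 of 23 PB sites (43.5%). The sheet gives this tumour no donor chromosome. Untreated tumours with donor chromosome 7 had 25.5% ± 16.3 (SD, n = 10) of IR sites on chromosome 7, and those with donor chromosome 10 had 5.61% ± 10.5 (SD, n = 37), so control 1 lay above both means. The highest single values were 57.1% and 50%, above that of control 1. On chromosome 10 control 1 had 1 IR site and control 2 had none, where untreated tumours with donor chromosome 10 had 28.0% ± 14.6 (SD, n = 37).

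In control 2 the leading chromosome by number of sites was 13, with 7 of 31 IR sites, 7 of 24 JX sites and 6 of 25 PB sites. Chromosome 7 held more of the counts of this tumour, with 19.9% of IR, 31.2% of JX and 24.8% of PB counts. For chromosome 13 these shares were 9.40%, 8.57% and 9.53%. All 7 IR sites on chromosome 13 lay between positions 3320687 and 12717381. Of these, 3 lay within 1000 kb of each other, 2 of them in Edaradd, an adaptor gene of ectodysplasin signalling, and 1 in intron 2 of Gpr137b-ps, and 5 of the 6 PB sites lay in the same stretch. Chromosome 7 held 5, 3 and 4 sites of control 2 and chromosome 9 held 5, 1 and 4. In control 1 a group of this kind lay on chromosome 14 at Lmo7, where 9 of 13 JX sites and all 4 PB sites fell within 1000 kb. The PB sites at positions 102271386 and 102271780 belong to 1 locus when sites at most 500 bp apart are joined. Leaving out chromosomes 7 and 10 and spread sites, 9 of 26 IR sites of control 2 (34.6%) and 2 of 8 of control 1 (25.0%) had another site of the same tumour between 500 bp and 1000 kb away. This share was 0% in 31 of the 47 untreated tumours and at most 41.7%. It was 0% for the IR sites of control 4, and 6.67% for the JX sites of control 3.

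In the 3 controls with donor chromosome 7, the chromosome held 14.1%, 3.98% and 16.7% of JX sites in controls 3, 4 and 5. The mean share of JX sites on the donor chromosome was 11.6% ± 6.71 (SD, n = 3) against 21.3% ± 14.7 (SD, n = 47) in untreated tumours, with p = 0.246 in the exact permutation test. Of these 47 tumours, 37 had donor chromosome 10. The 10 with donor chromosome 7 had 12.2% ± 11.1 (SD, n = 10) of JX sites on it, close to the mean of the controls. For PB sites the share in controls 3, 4 and 5 was 30.8%, 0% and 66.7%, or 8 of 26, 0 of 1 and 6 of 9 sites, with p = 0.539 in the exact permutation test. In the untreated tumours with donor chromosome 7 it was 22.8% ± 12.6 (SD, n = 10). For IR sites only control 4 gave a value, 6.45%, as controls 3 and 5 had no site. Sites of 3 controls fell near the genes listed as neighbours of the chromosome 7 launch site, within positions 102361744 to 109660940, a window set after the values were seen. Control 3 had JX counts in intron 2 of Arhgef17 and PB sites near Fam168a and in Arap1 and Stim1. Control 5 had a JX site in intron 1 of Arhgef17 and a PB site in intron 1 of the adaptor gene Gab2. Control 1 had an IR and a PB site downstream of P4ha3, JX sites at C2cd3 and Plekhb1 and a PB site 17.576 kb downstream of the potassium channel subunit gene Kcne3 with 2.25% of PB counts. Of the 10 untreated tumours with donor chromosome 7, 6 had an IR site, 5 a JX site and 7 a PB site in the window, and of the 37 with donor chromosome 10 these numbers were 1, 6 and 1. Of the chromosome 7 sites of control 1, 1 of 8 IR, 2 of 23 JX and 2 of 10 PB sites lay there. Control 3 had 1 of 10 JX and 3 of 8 PB sites there, and control 5 had 1 of 3 and 1 of 6. Control 4 had 0 of 34 IR and 0 of 7 JX sites there. Donor 7 untreated tumours had 10 of 50 IR, 15 of 80 JX and 11 of 51 PB sites there, and donor 10 ones had 1 of 29, 6 of 83 and 4 of 36.

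**Figure D5:**
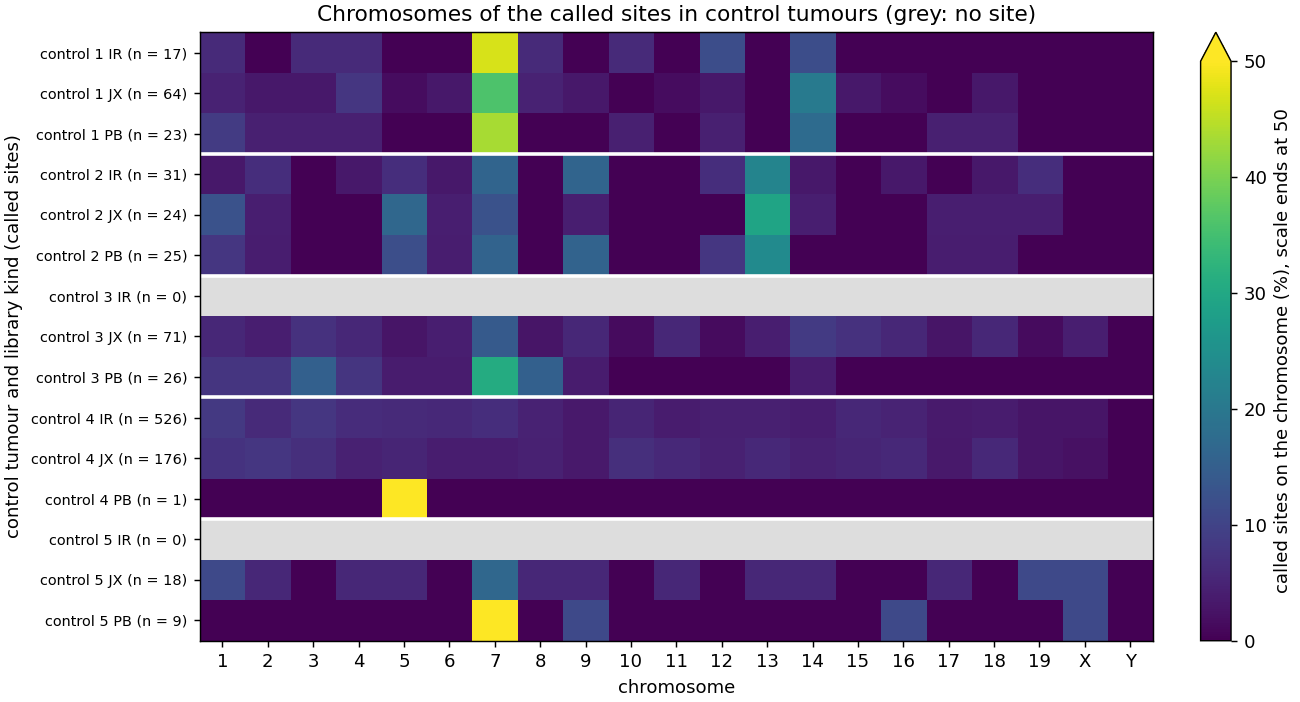
Percent of each control tumour's credited sites (colour, scale ends at 50) on each mouse chromosome (horizontal axis), 1 row per tumour and kind of library with its number of sites, counting sites on assembled chromosomes only and with grey rows where there was none. Chromosome 7 holds 47.1% of the IR sites of control 1 and chromosome 13 holds 22.6% of those of control 2.

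Hit genes were counted from credited sites, and crediting a site to 1 animal removes shared sites before the overlap of genes is counted. In IR libraries the controls hit 414 listed genes, 377 of them in control 4, and 27 of the 414 were also hit in an untreated tumour. In JX libraries 41 of 262 and in PB libraries 10 of 64 control genes were also hit in an untreated tumour. Over all 22353 genes of the table, 2.21%, 6.05% and 2.62% were hit in an untreated tumour in IR, JX and PB libraries. The overlap was not tested against these shares. For control 1 alone, 4 of 14 IR genes, 8 of 45 JX genes and 5 of 16 PB genes were also hit there. For control 2 the numbers were 2 of 25, 3 of 20 and 1 of 17.

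No gene was hit at a different frequency in the groups after adjustment. Fisher's exact test, two-sided and adjusted by the Benjamini-Hochberg method within each kind over genes hit in at least 3 animals, called 0 of 6 genes in IR libraries (0%), 0 of 28 in JX libraries (0%) and 0 of 7 in PB libraries (0%). At an unadjusted p under 0.05 it called 1, 0 and 0. That gene was Agbl1, a carboxypeptidase gene on chromosome 7, hit in IR libraries of 2 of 5 controls and 1 of 47 untreated tumours, with p = 0.0217 and an adjusted p of 0.130 by Fisher's exact test. Its site in control 1 lay in intron 17 with 0.543% of IR counts and the site in control 2 lay 918.362 kb upstream with 2.31%. When sites were kept in every animal that had them, Agbl1 counted as hit in 3 controls, the third being control 4 with 479 counts (0.189%) at the position of control 2, so that 1 site counted in both tumours, with an adjusted p of 0.0228 by Fisher's exact test, the only gene called among 13 tested (7.69%). In JX libraries, counted in this way, Klf4 was hit in 3 of 5 controls and 35 of 47 untreated tumours, Lsamp in 2 and 33 and Zcchc16 in 4 and 28. Sites spread over animals enter this count, with a median of 90 such called JX sites per untreated tumour. A shared site thus counts in every animal that has it called. Of 762 genes tested in this way in JX libraries, 0 were called (0%).

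Other genes hit in 2 controls were few. In IR libraries Vmn1r75 was hit in controls 1 and 4 and in no untreated tumour, at sites with 0.536% and 3.30% of counts. These sites lay upstream of the gene in control 1 and downstream of it in control 4. In JX libraries Arhgef17 was hit in controls 3 and 5 with 0.136% and 0.661%, and Tmc1, a gene of hair cell mechanotransduction, in controls 4 and 5 with 0.0359% and 0.107%. The Tmc1 site of control 4 was spread over animals and had 79 counts. In PB libraries Tox was hit in control 1 with 4.24% and in control 3 with 0.316%. None of these 4 was hit in an untreated tumour in that kind, and none reached the 3 animals needed for the test.

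The genes hit most often in untreated tumours were absent from the controls. Otogl, which encodes an otogelin-like protein, was hit in 11, 16 and 12 of 47 untreated tumours in IR, JX and PB libraries, and Ppp1r12a, a subunit of myosin phosphatase, in 8, 12 and 7. Both were hit in 0 of 5 controls in each kind, with p of 0.308 or more by Fisher's exact test. With 5 controls this test could not call them, as even 16 of 47 against 0 of 5 gives 0.308. With Syt1, Nav3, Lin7a and Ptprq they belong to the list of neighbours of the chromosome 10 launch site. Of the 11 members of that list, 0 were hit in controls and 8, 9 and 8 in untreated tumours in IR, JX and PB libraries. Over all 22353 genes, 1.85%, 1.17% and 0.286% were hit in a control, so a count of 0 in 11 genes is near the background. In untreated tumours the shares over all genes were 2.21%, 6.05% and 2.62%. The other genes hit most often in untreated tumours, such as Alx4 in IR libraries of 3 tumours, Rbfox1 in JX libraries of 4 and Adcy2 in PB libraries of 3, were also hit in 0 controls. No control was listed with donor chromosome 10. Of the 8 chromosome 7 neighbours in the table, 0, 2 and 1 were hit in controls and 2, 4 and 3 in untreated tumours.

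Of 28 genes of the SHH pathway, Ptch1 among them, 0 were hit in controls in IR, JX or PB libraries, against 3, 2 and 2 in the 47 untreated tumours. Over all 22353 genes of the table, 1.85%, 1.17% and 0.286% were hit in at least 1 control and 2.21%, 6.05% and 2.62% in at least 1 untreated tumour, so that a count of 0 in 28 genes is near the background. Of 28 genes mutated in human SHH medulloblastoma, 1 was hit in a control, the histone methyltransferase gene Mll2, in intron 1 in the JX library of control 3 with 0.157% of counts, against 2, 3 and 1 in untreated tumours in IR, JX and PB libraries. Of 19 genes from insertion screens in mouse SHH models, Pdgfra and Arid1b were hit in IR libraries, both in control 4 at sites spread over animals, and 0 in JX and PB libraries, against 2, 5 and 3 in untreated tumours. Of 15 genes of the granule neuron lineage, Cntn1 was hit in the IR library of the same tumour at spread sites, against 0, 2 and 0 genes in untreated tumours.

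Potassium channel genes were hit in controls 1, 3 and 4. Of 95 such genes 4 were hit in IR, 3 in JX and 2 in PB libraries of controls, and 3, 7 and 3 in untreated tumours. In controls these are 4.21%, 3.16% and 2.11% of the list, against 1.85%, 1.17% and 0.286% of all 22353 genes. In untreated tumours they are 3.16%, 7.37% and 3.16%, against 2.21%, 6.05% and 2.62%. The 4 in IR libraries were all in control 4, and 3 of them, Kcnd3, Kcne1 and Kcnq5, lay at spread sites. The other was Kcnb2, a delayed rectifier channel, in intron 1 at chromosome 1 position 15541972, with 131 counts or 0.0517% of the IR counts of control 4. Within 10 bp of this position 27 animals had IR counts, 231 in all, and 45 animals had JX counts, 883 in all, while the controls had 1 JX count and no PB count. Kcnb2 was hit in no untreated tumour in IR libraries. Of the JX hits, Kcnab1 was in control 3 with 0.184% of counts, and Kcnj3 and Kcnk13 were in control 4 at spread sites.

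Of 25 genes of synaptic adhesion or great length, 8 were hit in IR libraries of controls, 5 in JX and 1 in PB, against 3, 19 and 6 in untreated tumours. In controls these are 32%, 20% and 4% of the list, against 1.85%, 1.17% and 0.286% of all 22353 genes. In untreated tumours they are 12%, 76% and 24%, against 2.21%, 6.05% and 2.62%. The part of gene length in these shares was not tested. Of the 8 in IR libraries, 7 were hit in control 4 alone, among them Dmd, Nlgn1 and Dpp10 at spread sites and Erbb4, a receptor of neuregulins, with 1.06% of counts at a site that was not spread. The remaining gene was Opcml, an adhesion molecule, in control 2 with 0.120%. In the JX library of control 3 the list held Fhit, Dlg2 with 1.15% and Wwox with 0.166%.

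Where the sites lay in genes was described over sites. In control 1, 8 of 17 IR sites were intronic, 4 upstream and 3 downstream of the listed gene, and in control 2, 17 of 31 were intronic and 2 exonic. Untreated tumours had 336 of 739 IR sites in introns (45.5%) and 18 in exons (2.44%). In control 3, 10 of 71 JX sites were exonic (14.1%), Tppp and Stk35 among them, against 51 of 2098 (2.43%) in untreated tumours. This difference was not tested, as sites of a tumour are not replicates.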

How the data were processed

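The authors deposited unscaled counts for each position of each library. Positions are on mm9, per the submitters' processing notes. Aligner, counting rule and annotation: not given in the sources used here. Arms, animals, lanes and donor chromosomes came from the authors' sheet. Libraries of an animal were summed per kind, and IDs that differ by a leading zero were joined. Crediting used all 141 animals and control DNAs. Groups were compared with a two-sided exact permutation test of the means, and genes with Fisher's exact test (SciPy 1.17.1), both checked on simulated data. Alternatives covered the site threshold, merging, crediting, spread sites, depth, ends, donor, lane, scale and each control left out. The named genes were those hit in at least 2 controls, at the 3 highest sites of a control, hit most often in untreated tumours, with the lowest p, or members of set lists. The members and lists were chosen with earlier results of these data known.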

Additional observations from a re-analysis of the deposited data

Results flagged for a closer look

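Control 4 stood apart from the other controls in 3 measures, by the gap to its nearest neighbour relative to the range of the group of 5. It had 527 credited IR sites where the other controls had 0 to 31, an effective number of IR sites of 200.2 where the others had 6.34 to 49.8, and an effective number of JX sites of 387 where the others had 9.84 to 57.8. Chance flags about 1 in 20 groups by this gap, but this rate was not tested for skewed values such as these. The effective number of JX sites in untreated tumours had a mean of 102 and a median of 43.9. The depth of control 4 in IR libraries was 253248 counts, below all untreated tumours, and its part in the flagged values was not tested.

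The animal with conflicting arm marks, which entered no comparison, had 269 credited JX sites and 349 credited PB sites, above the highest control value of 176 and 26. It also had 389 credited IR sites, and 0.771% of them had JX counts within 100 bp, where the 3 controls with IR sites had 94.3% to 100%. Its libraries held 247817 IR, 205672 JX and 17742 PB counts.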

How the results depend on the processing

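All values here are differences, control mean minus untreated mean, in sites, chromosomes, effective sites or percentage points. Over 376 recomputed values 302 kept direction and side of the threshold, 48 changed sign, 18 passed the threshold newly, 3 lost it and 5 counts of genes moved. The loss was in the effective number of IR sites, with 49.6 against donor 7 untreated tumours and 51.4 against those of lanes 3 and 8, where fewer animals were compared. Of the planned settings, sites at 0.1% of the highest gave 700.3 for IR sites, 102.8 for PB sites, -5.96 for the PB donor share and -9.57 for IR sites with JX counts. Sites at 5% gave -25.9 and -1.67 for the last 2. Merging at 100 bp gave -4.16 for the JX effective number and -11.9 for the PB donor share. Keeping sites in every animal gave -20.6 for JX sites, -21.9 for the IR donor share and 1 gene in IR. Scaled counts gave -27.1 and left ends -9.57 for the PB donor share, and left ends gave 19.3 PB sites and 0.349 PB chromosomes.

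Without spread positions the values were 1180 for IR sites, 152.9 for PB sites, -16.8 and -18.0 for the highest IR and PB share, 39.1 and 274.4 for the JX and PB effective number, 6.07 and 3.56 for JX and PB chromosomes, -10.1 for the PB donor share, -37.7 for IR sites with JX counts, 29.3 for PB sites away, and 1 gene in IR and 9 in PB. Leaving spread positions out also sets the 1% threshold by each tumour's highest remaining site, so smaller sites can be called. Against donor 7 untreated tumours the values were -50.5 for the JX effective number and -0.700 for IR chromosomes. Against untreated tumours of lanes 3 and 8 they were 0.207 for the highest JX share, -71.1 for the JX effective number, -2.40 and -0.200 for IR and JX chromosomes and -1.90 for IR sites with JX counts. On the log2(value + 1) scale they were -0.0760 for IR sites, -0.718 for IR chromosomes and -0.724 for the PB donor share.

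Leaving out each control in turn gave -3.72 to 128.0 for IR sites, -0.388 to 39.1 for JX sites, -4.67 to 1.58 for PB sites, -71.0 to 23.2 for the JX effective number, -2.52 to 2.48 for IR chromosomes, -11.1 to 22.2 for the PB donor share and -0.225 to 2.62 for IR sites with JX counts. The effective number of IR sites stayed past the threshold in each case, at 19.4 to 67.9.

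The next alternatives were chosen after seeing the data. Adding the animal with conflicting marks gave 144.9 for IR sites, 53.0 for PB sites, 44.5 for the PB effective number, 0.656 for PB chromosomes, -23.6 for IR sites with JX counts and 29.0 for PB sites away. Leaving out En2, Foxf2 and Sfi1, which sets the 1% threshold of controls 3 and 5 on far smaller sites, gave 1598 for IR sites, 1685 for PB sites, -19.0 and -19.0 for the highest IR and PB share, -10.2 and 702.9 for the JX and PB effective number, 8.41 and 3.54 for IR and PB chromosomes, -16.7 for the PB donor share, -36.3 for IR sites with JX counts, 29.3 for PB sites away, and 75 genes in IR and 29 in PB. Lane as a block in lanes 3 and 8 gave 51.4 for the IR effective number, which lost the threshold, 0.207 for the highest JX share, -71.1 for the JX effective number, -2.40 and -0.200 for IR and JX chromosomes and -2.44 for IR sites with JX counts. Crediting among the 52 compared animals changed no call. The gene counts of all these settings are given without the number of genes tested, so they cannot be read as shares. The cause of these changes was otherwise not tested. No paired analysis was possible because the columns carry no replicate numbers that the compared groups share. Depth limits the PB values of control 4, which rest on 115 counts.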
